A study of Homo sapiens with 4 samples.

Results

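A set of 10 genes of the hypoxia-inducible factor (HIF) pathway was followed in A549 and HCC827 cells overexpressing myr-AKT1. They are the HIF subunit genes HIF1A, EPAS1 and ARNT, the regulators EGLN1, EGLN3 and VHL, and the non-glycolytic targets CA9, ADM, ANGPTL4 and VEGFA. All 10 symbols were matched to 1 Ensembl gene each among the 60558 genes of the files. They were chosen because HIF1A mRNA differed in opposite directions between the lines when myr-AKT1 cells were compared with vector cells. Their differences between these cells are therefore described here and carry no test.

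A549 and HCC827 are established human lung adenocarcinoma (LAD) lines, labelled as non-small-cell lung cancer. Each was transduced with empty vector or with myr-AKT1, an AKT1 whose myristoylation signal anchors the kinase at the membrane and keeps it active. The promoter of the construct and the oxygen level of the cultures are not given in the sources used here. RNA was sequenced as 1 library for each of the 4 conditions, so that no difference within a line has a replicate check, and all intervals below cover counting error only.

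HIF is a pair of proteins in which an oxygen-labile alpha subunit, HIF-1α from HIF1A or HIF-2α from EPAS1, joins the stable ARNT. In the presence of oxygen, the prolyl hydroxylases encoded by EGLN1 and EGLN3 mark the alpha subunit, and VHL then directs it to degradation. HIF activity is thus set mostly at the protein level, which was not measured here. Where the alpha subunit persists, the pair binds short hypoxia response elements beside genes of glycolysis, angiogenesis, pH control and lipid handling. EGLN3 and, to a lesser degree, EGLN1 are themselves induced by HIF.

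The libraries held 16322183 to 33530317 reads in genes, and the values below are normalized counts, that is, reads divided by 1 size factor per library. Levels given in RPM are reads scaled to the same gene total in every library. AKT1 itself had 6297 normalized counts in A549-myr-AKT1 against 4243 in A549-vector cells, and 4806 against 2175 in HCC827 cells. All 6 epithelial markers examined had more than 3 reads in every library, and their summed level was 5845 against 6629 RPM in A549 cells and 4263 against 7487 in HCC827 cells. Of these 6, 3 were above 0 in A549 and below 0 in HCC827 cells on the log2 scale, with both counting intervals excluding 0. The same held for 7.37% of all genes tested in both lines. KRT8 and KRT18 were below 0 in both lines, and CDH1 was above 0 in both. Of 11 markers of immune cells, endothelium, fibroblasts and red cells, A549-myr-AKT1 showed 9 above 3 reads and its vector control 4, while the HCC827 libraries showed 5 with myr-AKT1 and 7 with vector. Their summed level was 46.8 RPM in A549-myr-AKT1 against 2.74 in A549-vector cells, and 12.1 against 5.35 in HCC827 cells, with CD14 (784 against 34.9 normalized counts) and LUM (348 against 22.7) making up most of it in A549-myr-AKT1. The T-cell marker CD3E had 0 reads in all 4 libraries. The part of these transcripts in the differences below was not tested.

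To show where HIF could bind close to the genes, the 250 bases upstream of the RefSeq start were searched on both strands for the core of the hypoxia response element, ACGTG or GCGTG. RefSeq promoters (GRCh38.p14) were at hand for 8 of the 10 genes, and VEGFA and VHL were not matched. A core was found in 6 of the 8, namely HIF1A, EPAS1, EGLN1, CA9, ADM and ANGPTL4. Of all 35116 promoter windows, 43.2% held such a core, and 18.5% held ACGTG, the form found in EGLN1, CA9 and ANGPTL4. None of the cores lay within an E-box CACGTG, which contains ACGTG. The sequences printed next are those of CA9, EGLN3 and ANGPTL4, which stood highest over vector in A549 cells, of ADM, which did so in HCC827 cells, and of EGLN1, the other prolyl hydroxylase among the 10 genes. They run 5′ to 3′ along the gene and end at the base before its start, with cores in capitals. A core on the opposite strand reads CACGT. The windows are chr9:35673678-35673927 (plus strand) for CA9, chr1:231422288-231422537 (minus strand) for EGLN1, chr19:8363905-8364154 (plus strand) for ANGPTL4, chr11:10304823-10305072 (plus strand) for ADM and chr14:33951075-33951324 (minus strand) for EGLN3.
CA9: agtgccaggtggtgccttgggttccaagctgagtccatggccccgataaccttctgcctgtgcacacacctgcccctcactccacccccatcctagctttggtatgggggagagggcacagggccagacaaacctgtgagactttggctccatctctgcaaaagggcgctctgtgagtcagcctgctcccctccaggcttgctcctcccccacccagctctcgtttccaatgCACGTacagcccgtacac
EGLN1: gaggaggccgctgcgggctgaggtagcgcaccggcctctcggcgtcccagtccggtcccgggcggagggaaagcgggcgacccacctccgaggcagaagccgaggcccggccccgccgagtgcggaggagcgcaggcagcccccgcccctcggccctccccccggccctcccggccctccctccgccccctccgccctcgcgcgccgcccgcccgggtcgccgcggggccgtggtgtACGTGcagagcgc
ANGPTL4: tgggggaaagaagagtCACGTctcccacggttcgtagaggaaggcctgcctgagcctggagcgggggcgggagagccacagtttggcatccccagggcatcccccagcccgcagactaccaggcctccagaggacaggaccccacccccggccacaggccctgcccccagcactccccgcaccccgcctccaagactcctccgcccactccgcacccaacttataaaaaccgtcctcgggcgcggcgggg
ADM: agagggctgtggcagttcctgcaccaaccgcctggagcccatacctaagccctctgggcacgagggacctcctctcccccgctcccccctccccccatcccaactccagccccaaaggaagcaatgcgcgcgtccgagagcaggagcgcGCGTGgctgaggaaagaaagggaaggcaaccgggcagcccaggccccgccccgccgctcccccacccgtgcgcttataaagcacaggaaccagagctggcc
EGLN3: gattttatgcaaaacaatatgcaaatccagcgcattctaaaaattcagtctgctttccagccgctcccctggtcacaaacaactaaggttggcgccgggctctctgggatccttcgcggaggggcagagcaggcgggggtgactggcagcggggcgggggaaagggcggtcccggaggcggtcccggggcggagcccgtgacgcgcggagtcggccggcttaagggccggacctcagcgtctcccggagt

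In CA9 the core ACGTG lay on the minus strand from position -18 to -14 before the start, and in EGLN1 on the plus strand from -13 to -9. In ANGPTL4 it lay on the minus strand from -234 to -230, and in ADM the core GCGTG lay from -101 to -97. No core was found in the window of EGLN3. These matches are letters in a window and say nothing of binding, and elements further away were not searched.

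HIF1A mRNA (ENSG00000100644, GRCh38 chromosome 14, 61695513 to 61748259, plus strand) was higher in A549-myr-AKT1 cells and lower in HCC827-myr-AKT1 cells than in their vector controls. It had 44788 normalized counts in A549-myr-AKT1 and 22616 in A549-vector cells, while in HCC827 cells the counts were 16026 with myr-AKT1 and 28387 with vector. The log2 ratio of myr-AKT1 to vector was 0.99 for A549 (95% Clopper-Pearson interval from the reads, 0.96 to 1.01). For HCC827 it was -0.82 (-0.85 to -0.80). Because size factors were set within a line, libraries of different lines were compared in RPM. On this scale HIF1A was highest in A549-myr-AKT1 with 1553, followed by HCC827-vector with 1308, HCC827-myr-AKT1 with 780 and A549-vector with 772. The last pair did not differ beyond counting error, with a ratio of 1.01 (0.99 to 1.03). The 2 vector controls thus had different levels, HCC827-vector being 1.69-fold above A549-vector.

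The other subunits differed less. EPAS1 (ENSG00000116016, chromosome 2, 46293667 to 46386697), the gene of HIF-2α, had 6981 against 6205 normalized counts in A549 cells and 3738 against 3748 in HCC827 cells, giving log2 fold changes of 0.17 (0.12 to 0.22) and -0.00 (-0.07 to 0.06). The 4 libraries held EPAS1 at 173 to 242 RPM, a narrower spread for its level than the 772 to 1553 of HIF1A and the 52.7 to 97.8 of ARNT. ARNT (ENSG00000143437, chromosome 1, 150809713 to 150876708), which encodes the shared partner, was higher with myr-AKT1 in both lines. It had 2820.5 against 2185 normalized counts in A549 cells, or 0.37 on the log2 scale (0.29 to 0.45). In HCC827 it had 1759 against 1144, or 0.62 (0.51 to 0.73).

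With RPM further divided by exon length in kilobases (RPKM), HIF1A exceeded EPAS1 in every library. The ratio of these levels was 9.08 in A549-myr-AKT1 and 5.16 in A549-vector cells, and for HCC827 cells it was 6.07 with myr-AKT1 and 10.7 with vector. Over ARNT the ratio of HIF1A was 19.9, 13.0, 11.4 and 31.1 in the same order. By this level HIF1A was number 66 of all genes with myr-AKT1 and number 173 with vector in A549 cells, and number 166 with myr-AKT1 and 106 with vector in HCC827 cells.

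The prolyl hydroxylase genes EGLN3 and EGLN1 differed in the same 2 directions as HIF1A, whereas VHL barely differed. EGLN2, the remaining HIF prolyl hydroxylase gene, is not among the 10 and is named here after its values were seen. It had log2 fold changes of -0.07 (-0.28 to 0.13) in A549 and 0.10 (-0.19 to 0.38) in HCC827 cells, and both intervals include 0. EGLN3 (ENSG00000129521, chromosome 14, 33924227 to 34462774, minus strand), which encodes PHD3, had 2238 normalized counts in A549-myr-AKT1 and 358 in A549-vector cells. In HCC827 cells it had 1019 with myr-AKT1 and 1833 with vector. The log2 fold change was 2.64 (2.49 to 2.80) in A549 cells, or 6.25-fold, and -0.85 (-0.96 to -0.73) in HCC827 cells. Across the lines, HCC827-vector cells had the highest level with 84.4 RPM, A549-myr-AKT1 followed with 77.6 and HCC827-myr-AKT1 with 49.6, and A549-vector cells held 12.2. The vector controls differed 6.90-fold, and A549 cells with myr-AKT1 came close to the level of HCC827-vector cells, with a ratio of HCC827-vector to A549-myr-AKT1 of 1.09 (1.02 to 1.16).

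EGLN1 (ENSG00000135766, chromosome 1, 231363751 to 231422287, minus strand), which encodes PHD2, the main oxygen sensor of HIF-1α, had 2009.7 against 1249 normalized counts in A549 cells. The HCC827 values were 374 against 699. The log2 fold changes were 0.69 (0.58 to 0.79) and -0.90 (-1.10 to -0.71). Of its exon bases, 55.8% are shared with a second gene on the same strand, ENSG00000287856, which held 0 to 10 reads per library, and reads in shared exons may not have been counted. Per kilobase of exon, the ratio of EGLN3 to EGLN1 was 0.814 in A549-myr-AKT1 and 0.210 in A549-vector cells. It was 1.99 and 1.92 in the HCC827 libraries, with EGLN1 possibly understated. With the length of the longest transcript, the order in A549-myr-AKT1 reversed, with 27.2 for EGLN3 and 16.1 for EGLN1. A549-vector cells kept their order, with 4.29 and 9.84, and so did the HCC827 libraries.

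VHL (ENSG00000134086, chromosome 3, 10141778 to 10153667), which encodes the substrate-binding part of the ubiquitin ligase, had 1599.7 normalized counts in A549-myr-AKT1 and 1712.5 in A549-vector cells, and 911 and 937 in HCC827 cells. Its log2 fold changes were -0.10 (-0.20 to 0.00) and -0.04 (-0.18 to 0.09), and both intervals include 0. With size factors set over all 4 libraries both values were slightly above 0, at 0.0041 and 0.0079. A lncRNA on the opposite strand, ENSG00000287086, shares 23.5% of the exon bases of VHL but held at most 4 reads.

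CA9 (ENSG00000107159, chromosome 9, 35673928 to 35681159, plus strand) encodes carbonic anhydrase IX, a membrane enzyme of pH control and a classical marker of HIF activity. It had 2106 normalized counts in A549-myr-AKT1 and 126 in its vector control, resting on 1839 and 144 reads. This 16.7-fold difference, 4.07 on the log2 scale (3.82 to 4.32), was the largest of the 10 genes in A549 cells. In HCC827 cells CA9 had 5 reads with myr-AKT1 and 0 with vector, and was not tested there. With the vector library set at a floor of 3 reads, the ratio was 2.64-fold. The counting interval of the log2 ratio, from the 5 and 0 reads, began at 0.54. The 0 reads allow a level of up to 0.11 RPM. CA9 shares 35.7% of its exon bases with ARHGEF39 on the opposite strand, which held 139 reads in A549-myr-AKT1 and 914 in A549-vector cells, the reverse order of CA9.

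ADM (ENSG00000148926, chromosome 11, 10305073 to 10307397), which encodes the vasodilator peptide adrenomedullin, was higher with myr-AKT1 in both lines and more so in HCC827 cells. Normalized counts of ADM were 2664 against 1674 in A549 cells and 1408 against 265 in HCC827 cells, giving log2 fold changes of 0.67 (0.58 to 0.76) and 2.41 (2.23 to 2.59). It was the only 1 of the 9 genes measured in both lines whose log2 fold change was lower in A549 cells by 1 or more. The vector controls differed 4.69-fold, with 57.2 RPM in A549 and 12.2 in HCC827 cells, and the myr-AKT1 libraries held 92.3 and 68.6.

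ANGPTL4 (ENSG00000167772, chromosome 19, 8363289 to 8374370), which encodes a secreted inhibitor of lipoprotein lipase, had 2299 normalized counts in A549-myr-AKT1 and 555 in A549-vector cells. In HCC827 cells it had 418 with myr-AKT1 and 589.7 with vector. The log2 fold changes were 2.05 (1.92 to 2.18) and -0.50 (-0.69 to -0.31). In RPM, A549-myr-AKT1 with 79.7 stood above the other 3 libraries at 19.0 to 27.2.

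VEGFA (ENSG00000112715, chromosome 6, 43770184 to 43786487), the gene of the main angiogenic growth factor, was higher with myr-AKT1 in both lines and differed more between the lines than with myr-AKT1. It had 3278.5 against 1575 normalized counts in A549 cells, or 1.06 on the log2 scale (0.97 to 1.14). In HCC827 it had 9177 against 7724, or 0.25 (0.20 to 0.29). HCC827-vector cells held 356 RPM against 53.8 in A549-vector cells, 6.61-fold more, and A549-myr-AKT1 cells reached 114.

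**Figure D1:**
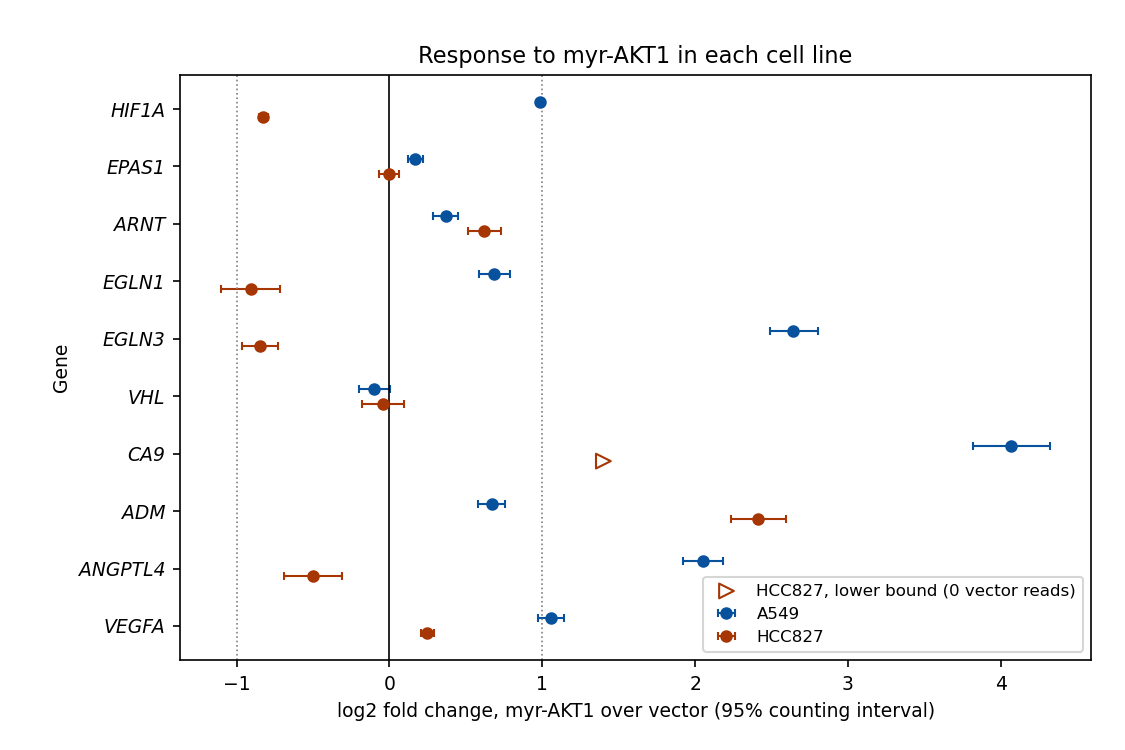
Log2 fold change of normalized counts, myr-AKT1 over vector, for each of the 10 genes in A549 (blue) and HCC827 (brown) cells, with 95% counting intervals as bars and dotted lines at -1 and 1. HIF1A, EGLN1, EGLN3 and ANGPTL4 lie on opposite sides of 0 in the 2 lines with both intervals excluding 0. The open triangle, labelled as a lower bound, marks CA9 in HCC827 cells with vector set at a floor of 3 reads. It is not the limit of the counting interval.

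Set side by side, 9 of the 10 genes were above their vector control in A549 cells, with a median log2 fold change of 0.84. In HCC827 cells 3 of the 9 genes measured were above it, with a median of -0.04. Over all genes tested, 48.1% were above 0 in A549 and 48.0% in HCC827 cells. Their medians were both -0.04 (18688 genes in A549 and 17306 in HCC827 cells). CA9, EGLN3, ANGPTL4 and VEGFA, 4 of the 10, had a log2 fold change of 1 or more in A549 cells, as had 14.8% of all genes tested. HIF1A lay just below this threshold, and lay at 1.01 to 1.09 with 3 other scalings. In HCC827 cells ADM, 1 of 9, passed it, where 14.0% of all genes did. None of the 10 had a log2 fold change of -1 or less, against 9.86% of all genes in A549 and 12.4% in HCC827 cells. At a threshold of 2, CA9, EGLN3 and ANGPTL4 remained in A549 cells, where 5.52% of all genes were as high and 2.78% as low, and ADM remained in HCC827 cells, where the shares were 4.46% and 3.0%. Of the 9, 5 with EPAS1 included were above 0 in A549 and below 0 in HCC827 cells, as were 16.2% of genes. HIF1A, EGLN1, EGLN3 and ANGPTL4, 4 of the 9 genes measured in both lines, were above 0 in A549 cells and below 0 in HCC827 cells with both counting intervals excluding 0, a pattern held by 7.37% of the 15668 genes tested in both lines. The opposite pattern was held by 7.29% of genes and by none of the 9. Because the genes were chosen from these contrasts, nothing is read from the counts, and the markers of other cells given above were higher in the same A549-myr-AKT1 library.

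The gap between the lines, taken as the log2 fold change in A549 minus that in HCC827 cells, was 3.49 for EGLN3 (3.30 to 3.68), 2.55 for ANGPTL4 (2.32 to 2.77), 1.81 for HIF1A (1.77 to 1.85) and 1.59 for EGLN1 (1.38 to 1.81). It was 0.81 for VEGFA, 0.17 for EPAS1, -0.06 for VHL, -0.25 for ARNT and -1.74 for ADM (-1.94 to -1.54). The gap was 1 or more for 4 of the 9 genes, and for 12.5% of all genes tested in both lines. It was -1 or less for ADM, 1 of the 9, and for 11.8% of all.

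The genes with the pattern closest to HIF1A were sought among 10136 other genes with at least 100 reads in every library. Likeness was the Euclidean distance between log2 RPM over the 4 libraries, each gene centred on its own mean. The 5 nearest included GRAMD4 at 0.12, CDC42EP3 at 0.15, ITGA1 at 0.19 and the lncRNA BAIAP2-DT at 0.23. GRAMD4 had log2 fold changes of 0.96 in A549 and -0.81 in HCC827 cells, and CDC42EP3 had 1.11 and -0.66. With a minimum of 20 reads, 2 of the 5 stayed among the nearest. Of the other HIF pathway genes, EPAS1 was number 831 by this distance (0.85), VHL number 1677 (0.98), ANGPTL4 number 1817 and EGLN1 number 2615 (1.08), which is set by how far each gene moved as well as by direction. EGLN3 with its larger range was number 7920, and VEGFA and ADM were numbers 9653 and 9661.

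The antisense transcripts of HIF1A had few reads. HIF1A-AS1, which overlaps 133 exon bases of HIF1A, held 57 reads in A549-myr-AKT1 and 12 in A549-vector cells, and 1 and 7 in HCC827 cells. HIF1A-AS3, which overlaps 299 exon bases, held 114 and 54, and 51 and 20. With myr-AKT1, HIF1A-AS3 thus had more reads in both lines although the libraries were smaller. The strand setting of the authors' counting is not given in the sources used here.

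To place the 10 genes in their pathway, lists of related genes were examined in the same libraries. A list of 35 other non-glycolytic HIF targets held 33 genes that were tested in A549 cells. Of these, 29 were above 0, beside 48.1% of all genes. A log2 fold change of 1 or more was held by 16 (48.5%, beside 14.8% of all genes), and the median was 0.93. In HCC827 cells 32 were tested and 23 were above 0, beside 48.0% of all genes. There 11 had 1 or more (34.4%, beside 14.0%), with a median of 0.54. None had -1 or less in either line. Of the 32 genes tested in both lines, 7 had 1 or more in each, where 4.52% of all 15668 genes did. They include CA12, a further membrane carbonic anhydrase (1.42 in A549, 1.70 in HCC827 cells), the transcriptional repressor BHLHE40 (1.22 and 1.02), TMEM45A (2.18 and 3.72), the ephrin ligand EFNA1 (1.31 and 1.64), the growth factor PDGFB (2.27 and 1.18) and the IGF-binding protein IGFBP3 (2.82 and 1.94). In HCC827-myr-AKT1 and HCC827-vector cells, CA12 rested on only 117 and 57 reads and TMEM45A on 83 and 10. The transferrin receptor TFRC was the lowest tested gene of the list in both lines, with -0.94 and -0.83. Another 5 of the 32 were above 0 in A549 and below 0 in HCC827 cells with both intervals excluding 0, as was HIF1A and as were 7.37% of all genes tested in both lines. They are BNIP3 and BNIP3L, which act in mitophagy, the mTORC1 inhibitor DDIT4, the sterol regulator INSIG2 and PPFIA4, and they were chosen after their values were seen. DDIT4 had 1.44 and -0.39, BNIP3L 1.09 and -0.37, BNIP3 0.86 and -0.23, INSIG2 0.70 and -0.45, and PPFIA4 1.92 and -0.57.

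The list of 19 glycolytic HIF targets stood mostly above vector in A549 cells and mostly below it in HCC827 cells. In A549 cells 15 of 19 were above 0, beside 48.1% of all genes, and 7 had 1 or more, beside 14.8%, with a median of 0.45, led by ALDOC (3.41) and HK2 (2.36). In HCC827 cells 5 of 19 were above 0, beside 48.0% of all genes, and 1 had 1 or more, beside 14.0%, with a median of -0.27. That gene was SLC2A3 (1.20), resting on 16 and 11 reads. ENO1, with -1.09 in HCC827 and -0.61 in A549 cells, was the only 1 at -1 or less in HCC827 cells, beside 12.4% of all genes. The log2 fold change was larger in A549 than in HCC827 cells for 18 of the 19 glycolytic targets, for 20 of 32 other non-glycolytic targets and for 46.3% of all genes tested in both lines. The median gap between the lines was 0.90 for the glycolytic and 0.47 for the non-glycolytic targets, beside -0.07 for all genes.

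Of 12 other genes of oxygen sensing and HIF turnover, none had a log2 fold change of 1 or more or of -1 or less in either line, and their medians were 0.02 and 0.09. Of all genes, 14.8% were as high and 9.86% as low in A549 cells, and 14.0% and 12.4% in HCC827 cells. CITED2, which competes with HIF for the coactivator p300 and is itself a HIF target, had 0.88 in A549 and -0.78 in HCC827 cells. It was the only 1 of the 12 above 0 in A549 and below 0 in HCC827 cells. HIF1AN (-0.22 and 0.20) and SIAH2 (-0.35 and 0.56), named after their values were seen, had the reverse signs with both intervals excluding 0. The log2 fold change was larger in A549 than in HCC827 cells for 3 of the 12, beside 46.3% of all genes. CUL2, the scaffold of the VHL ubiquitin ligase, was lower in both lines, with -0.65 and -0.63. Of 8 further subunits and partners, HIF3A had 0 reads in all 4 libraries and the other 7 were tested. The coactivator genes EP300 and CREBBP were below 0 in A549 cells (-0.29 and -0.42) and above 0 in HCC827 cells (0.57 and 0.39), and ARNT2 had -1.07 in HCC827 cells, from 22 and 73 reads.

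**Figure D2:**
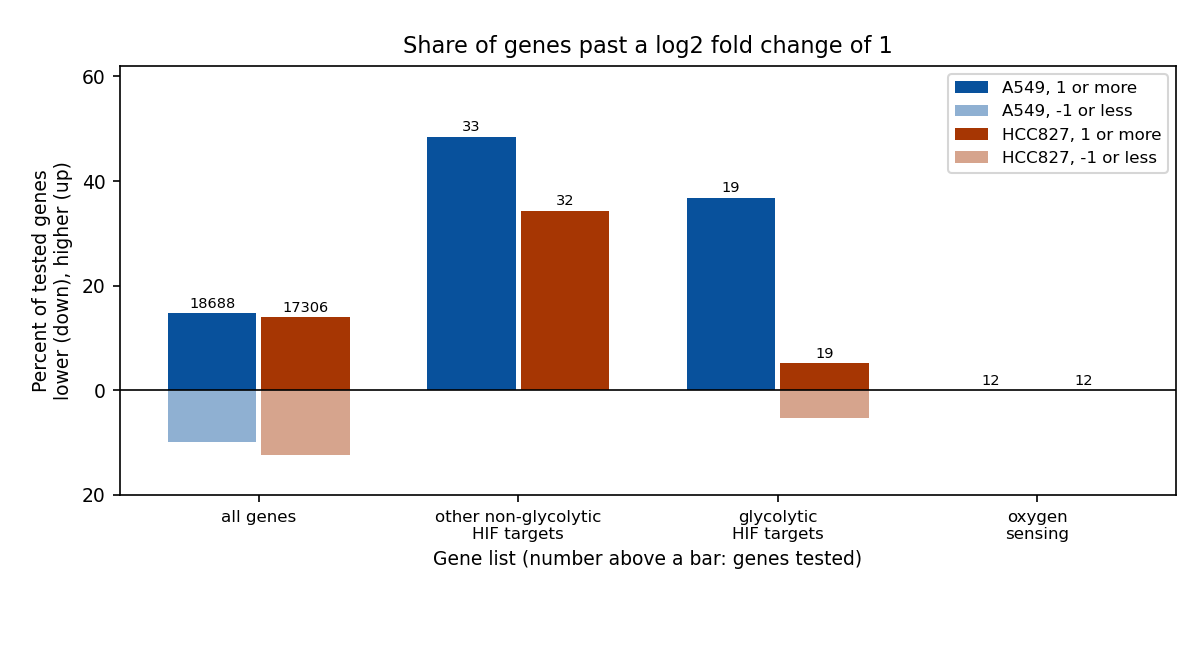
Percent of tested genes with a log2 fold change of 1 or more (bars up) and of -1 or less (pale bars down) in A549 (blue) and HCC827 (brown) cells, for all genes and 3 lists, with the number tested above each bar. The non-glycolytic targets reach 48.5% in A549 and 34.4% in HCC827 cells, the glycolytic targets 36.8% and 5.26%, and the oxygen-sensing genes 0% in both.

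Among the relatives of the targets, CA12 was more abundant than CA9 in A549 cells. Per kilobase, it exceeded CA9 38.5-fold in A549-vector and 6.13-fold in A549-myr-AKT1 cells. Of 13 other carbonic anhydrase genes, 5 were tested in A549 and 3 in HCC827 cells, and CA11 and CA13 had 1.94 and 1.31 in HCC827 cells against 0.44 and 0.50 in A549 cells. Of 20 genes of the VEGF, adrenomedullin and angiopoietin-like families, 11 were tested in A549 and 7 in HCC827 cells. ADM2, a peptide related to adrenomedullin, had -1.24 in A549 and 2.18 in HCC827 cells. The placental growth factor gene PGF was higher in both lines (1.21, from 51 and 29 reads, and 14 against 2 reads in HCC827 cells). The VEGF co-receptor NRP1 had -0.20 and -1.43. The receptor activity-modifying protein gene RAMP1 had 0 reads in both A549 libraries and 492 and 1176 in HCC827-myr-AKT1 and HCC827-vector cells. RAMP2 and RAMP3 of the same family held 0 to 4 reads per library.

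A fit over both lines, with the line as a block and 1 residual degree of freedom, was read for the listed genes other than the 10. In limma the variance of each gene was moderated with that of all genes fitted. Its standard errors and p-values thus do not rest on replication of each gene alone. With limma, and p-values adjusted by Benjamini-Hochberg with 0.05 as threshold, 5 of 86 listed genes were higher and 0 lower, against 1.29% higher and 1.73% lower of all 19314 genes. All 5 belong to the 32 non-glycolytic targets fitted. They include IGFBP3 (log2 fold change on the log2(value + 1) scale 2.38, standard error 0.308, adjusted p = 0.0128 from limma), CA12 (1.55, 0.252, adjusted p = 0.0263), EFNA1 (1.48, 0.280, adjusted p = 0.0381) and TMEM45A (2.86, 0.581, adjusted p = 0.0455), each higher in 2 of 2 lines. Unadjusted, limma gave 22 higher and 4 lower listed genes at p under 0.05, beside 1772 higher and 1785 lower of all 19314 genes. From the recovered reads, edgeR (quasi-likelihood) called 4 of the 86 higher and 0 lower, leaving out TMEM45A, where it called 1.01% and 1.18% of all genes. Unadjusted, edgeR gave 22 and 2 of the 86, beside 1808 and 1417 of all 19314 genes. DESeq2 called 12 higher and 1 lower, and 3.19% and 2.67% of all genes. With limma without the cell line block, or with a pseudocount of 0.1, none of the 86 passed, and 5 higher and 1 lower, and 21 higher and 3 lower, did so unadjusted.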

How the data were processed

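RNA of A549 and HCC827 cells with vector or myr-AKT1 was sequenced as 4 libraries. Per the labels, ribosomal RNA was depleted, whereas the paper's methods describe poly(A) selection. After trimming, the authors aligned reads to HG38 by Bowtie2, and HTSeq counted them by Ensembl gene. The deposited signal equals reads over a size factor, which was set within the 2 libraries of a line, although the methods name RPKM. Dividing by the worth of 1 read gave whole numbers, within 0.001, for 99.996% to 100% of values with reads. Gene names and positions came from GENCODE release 44 (60261 of 60558 identifiers matched).

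Log2 fold changes within a line were taken from the deposited signal, adding no pseudocount, and the reads gave their 95% Clopper-Pearson intervals. Genes were tested where the pair's mean signal reached 10 and neither library had 0 reads. Reads are not independent molecules, so that intervals and the floor of 3 reads cover counting error only. Intervals of a gap between lines are normal approximations on the log scale. The fit over both lines used limma on log2(signal + 1) with a mean-variance trend, with edgeR and DESeq2 on recovered reads as alternatives. These fits were first run on simulated counts in which changed genes responded alike in both lines. A minimum recovery of those genes was required of edgeR and DESeq2 but not of limma. The genes, the lists, the named genes (list genes past 1 in both lines, the 2 highest and 2 lowest per line, the 5 nearest HIF1A) and thresholds were chosen with earlier results of these data known. Some genes that the rule selects are not reported here. The alternatives were other scalings, thresholds, filters, pseudocounts, lengths and tools. The versions were edgeR 4.0.16, limma 3.58.1 and DESeq2 1.42.0 in R 4.3.3, and pandas 2.3.3 and scipy 1.17.1 in Python 3.11.15.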

Additional observations from a re-analysis of the deposited data

Results flagged for a closer look

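With 1 library per condition, those of the 10 genes and of the named list genes are given here whose log2 fold change with myr-AKT1 had opposite signs in the 2 lines and both counting intervals excluded 0. This contrast of the lines has no test, and the counting intervals do not cover variation between cultures. Of the HIF pathway genes, the log2 fold change in A549 minus that in HCC827 cells was 1.81 for HIF1A, 1.59 for EGLN1, 3.49 for EGLN3 and 2.55 for ANGPTL4. Of the coactivators and other regulators, it was -0.81 for CREBBP, -0.86 for EP300, 0.39 for NCOA2, 1.66 for CITED2, -0.42 for HIF1AN and -0.91 for SIAH2. Among targets, it was 2.62 for HK2 and 1.42 for PFKFB3, both of glycolysis, 1.09 for BNIP3, 1.46 for BNIP3L, 1.83 for DDIT4, 1.15 for INSIG2 and 2.497 for PPFIA4. For ADM2 it was -3.42, from 10 and 31 reads in A549 cells and 278 and 97 in HCC827 cells. Not all glycolytic targets with such signs are named here. Above 0 in A549 and below 0 in HCC827 cells, with both intervals excluding 0, were 10 of 19 glycolytic targets. The same held for 5 of 32 other non-glycolytic targets and 7.37% of all genes tested in both lines.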

How the results depend on the processing

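HIF1A, EGLN1, EGLN3 and ANGPTL4 kept opposite signs with both intervals excluding 0 under TMM, total reads and size factors over all 4 libraries, 4 genes in each setting. The last scaling moved the median of all genes by 0.10 in A549 and 0.05 in HCC827 cells. HIF1A passed 1 on the log2 scale in A549 cells under all 3 of these scalings, and TMM and total reads each gave 5 of the 10 genes instead of 4. EPAS1 in HCC827 cells and VHL in both lines changed sign between scalings, with values from -0.10 to 0.08. With the threshold of 2, 5 non-glycolytic list genes instead of 16 were higher in A549 cells and 3 instead of 11 in HCC827 cells, and filters or scaling left these within 1.5 times.

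The numbers of the fit over both lines varied widely. Of all genes, limma called 250 higher and 335 lower, edgeR 196 and 228, DESeq2 616 and 516, limma with at least 1 read in any library 1101 and 894, and limma with a pseudocount of 0.1 or without the cell line block 0 and 0. With at least 1 read, 33056 genes and 99 listed genes were fitted, against 19314 and 86 in the other settings. Of the listed genes, the numbers were 5 and 0 with limma, 12 and 1 with DESeq2, and 18 and 3 with at least 1 read. They were 0 and 0 with the pseudocount of 0.1 or without the block. Unadjusted, all genes then numbered 1558 and 1626 with the pseudocount of 0.1, and 201 and 430 without the block. The cause was not tested. Leaving out a library leaves no residual degree of freedom and was not run. The libraries carry no replicate numbers, and their only pairing is by cell line, which is the block of the fit.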
